A study of Mus musculus with 4 samples.

Results

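Inhibitory nuclei that carried transcripts of dynorphin or galanin were examined in single-nucleus RNA sequencing of the mouse spinal dorsal horn. A nucleus belonged to the set when it had at least 1 UMI (a unique molecular identifier, which stands for 1 captured RNA molecule) of Gad1, Gad2, Slc32a1 and Slc6a5 together, no UMI of Slc17a6, and at least 2 UMIs of Pdyn and Gal together. The first 4 genes encode the enzymes and transporters of GABA and glycine release, and Slc17a6 encodes the vesicular glutamate transporter of excitatory neurons. The rule was met by 161 nuclei, here called Pdyn/Gal nuclei, which made up 0.637% of the 25289 inhibitory nuclei and 0.144% of the 112194 nuclei kept. The comparison nuclei were the 23674 inhibitory nuclei without a UMI of either gene, and the 1454 with exactly 1 such UMI were kept apart from both.

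The 4 libraries came from Gpr37l1-/- mice (KO) 1 day after spared nerve injury (SNI), from Gpr37l1+/+ mice (WT) 1 day after SNI, from naive KO mice and from naive WT mice. SNI is a model of neuropathic pain in which branches of the sciatic nerve are cut and 1 branch is left intact. The labels name no promoter or Cre that would limit the deletion to a cell type. Gpr37l1 encodes an orphan receptor found mainly on astrocytes and oligodendrocyte precursors. Each group was 1 library, so no difference between groups has a replicate check, and the intervals below are 95% intervals that cover counting error only. The sources used here do not give the age or sex of the mice or the number of animals per library. For 2 libraries, KO naive and WT SNI, the treatment tag goes against the title, and groups follow the titles and library names. The molecule is labelled total RNA for KO SNI and polyA RNA for the others.

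Prodynorphin, the product of Pdyn, is cut into dynorphin peptides that act on the kappa opioid receptor, while galanin acts on its own family of receptors. In the mouse dorsal horn both peptides are known from a population of inhibitory interneurons of the superficial laminae, which is set apart from the inhibitory populations with neuropeptide Y, parvalbumin or nitric oxide synthase. Dynorphin neurons of this kind are known for holding itch and mechanical pain in check.

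Depth was alike in the 4 libraries. They held 27891, 27113, 37497 and 19693 kept nuclei in KO SNI, WT SNI, KO naive and WT naive, with median depths of 1286 to 1510 UMIs. Library pairs shared between 0.531% and 1.05% of their barcodes, and the Pdyn/Gal nuclei shared 0. Gpr37l1 had 0.253 and 0.333 CPM (a gene's UMIs scaled to a common total) in KO SNI and KO naive, against 25.8 and 14.3 CPM in WT SNI and WT naive, so the genotype labels and the gene's level went together.

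The set was small in every library. It held 33 of 5342 inhibitory nuclei in KO SNI (0.618%, Clopper-Pearson interval 0.426 to 0.866), 64 of 6345 in WT SNI (1.01%, 0.778 to 1.29), 38 of 9497 in KO naive (0.400%, 0.283 to 0.549) and 26 of 4105 in WT naive (0.633%, 0.414 to 0.927). WT SNI had the highest share and KO naive the lowest. With every nucleus thinned to 1000 UMIs and shallower nuclei left out, the shares were 0.249% (7 of 2809), 0.478% (16 of 3344), 0.176% (8 of 4552) and 0.238% (5 of 2104) in the same order.

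Galanin supplied most of the set. The nuclei held 263 UMIs of Gal and 93 of Pdyn, 92 of them had Gal alone, 14 had Pdyn alone and 55 had both. Most stood at the threshold, since 134 had exactly 2 UMIs of the pair and 27 had 3 or more. The inhibitory call was as thin, with 109 nuclei at exactly 1 inhibitory UMI. Scrublet marked 16 of the 161 as predicted doublets. Their median depth was 1525, 2213, 2036 and 2162 UMIs in KO SNI, WT SNI, KO naive and WT naive, against 1651, 1785, 1821 and 1908 in inhibitory nuclei without a UMI of either gene.

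Neither peptide gene was higher in inhibitory nuclei than in oligodendrocyte nuclei of the same library. Pdyn (GRCm38 chromosome 2, 129686565 to 129699844, minus strand) had 6.98, 10.8, 9.21 and 6.77 CPM in all inhibitory nuclei of KO SNI, WT SNI, KO naive and WT naive. Its levels in nuclei chosen by oligodendrocyte markers, which should lack it, were 9.30, 13.7, 9.63 and 8.67 CPM in that order. Gal (chromosome 19, 3409915 to 3414544, minus strand) had 25.5, 36.0, 18.9 and 19.7 CPM in inhibitory nuclei, against 30.6, 43.8, 21.7 and 27.3 CPM in the oligodendrocyte nuclei. Both genes were thus below the oligodendrocyte level in every library, and the number of Gal UMIs per Pdyn UMI was also close, at 3.65, 3.34, 2.05 and 2.90 in inhibitory nuclei and 3.29, 3.20, 2.25 and 3.15 in oligodendrocyte nuclei.

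**Figure D1:**
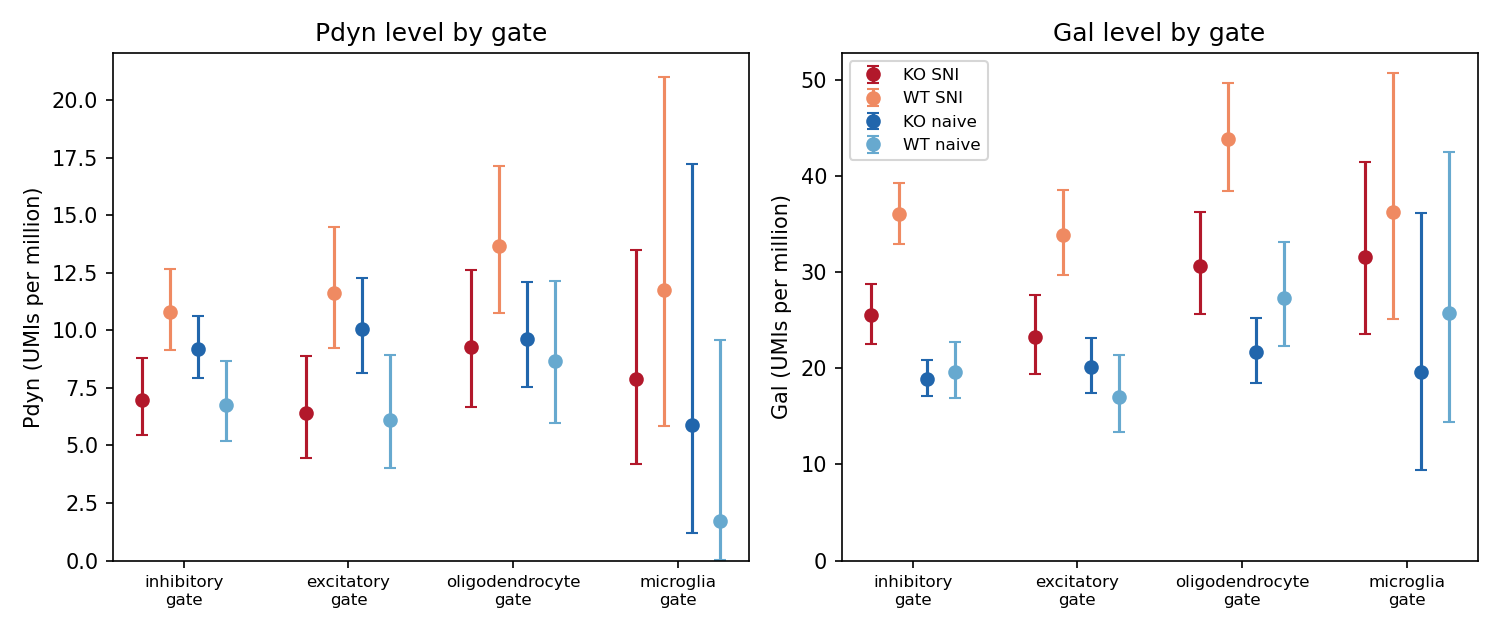
Levels of Pdyn and Gal in CPM with 95% Poisson intervals in nuclei chosen by inhibitory, excitatory, oligodendrocyte and microglia marker genes, with 1 coloured point per library. In each library the inhibitory value lies below the oligodendrocyte value for both genes.

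The peptide part of the rule was also met by nuclei that should lack both genes. The share of oligodendrocyte nuclei with 2 or more UMIs of the pair was 0.375%, 0.381%, 0.191% and 0.0980% in KO SNI, WT SNI, KO naive and WT naive, at median depths of 998, 1191, 1252 and 957 UMIs against 1655, 1809, 1828 and 1911 in inhibitory nuclei. At 1000 UMIs per nucleus the oligodendrocyte shares were 0.230%, 0.333%, 0.126% and 0.0909%. The inhibitory share was above that value in all 4 libraries, but every count was 16 nuclei or fewer and the differences were not distinguishable at this depth. Excitatory nuclei reached 0.379%, 0.759%, 0.257% and 0.245% before thinning and 0.342%, 0.184%, 0.0449% and 0.203% after it, and in KO SNI their thinned share was above the inhibitory one. The label of dynorphin or galanin neurons is accordingly used here only as the name of the rule, and the peptide levels alone do not set the nuclei apart from background.

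The inhibitory rule itself did select on identity. Pax2, a transcription factor of inhibitory dorsal horn neurons that the rule did not use, had 43.7, 110 and 166 CPM in KO SNI nuclei with 0, 1 and 2 or more inhibitory UMIs. In WT SNI it had 43.9, 90.4 and 129 CPM, in KO naive 49.3, 92.1 and 138 CPM, and in WT naive 43.3, 107 and 164 CPM. The order was the same in all 4 libraries, and Lmx1b, a transcription factor of excitatory dorsal horn neurons, ran the other way (53.3, 33.9 and 13.9 CPM in KO SNI). Pdyn and Gal were not higher in the nuclei with more inhibitory UMIs.

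Gal was found in a larger share of inhibitory nuclei with Pdyn than without it. It was found in 55 of 450 inhibitory nuclei with a Pdyn UMI (12.2%, 9.34 to 15.6) and in 1165 of 24839 without one (4.69%, 4.43 to 4.96). In oligodendrocyte nuclei it was found in 13 of 213 with a Pdyn UMI (6.10%, 3.29 to 10.2) and in 605 of 14700 without one (4.12%). By library the inhibitory shares with Pdyn were 15.3%, 15.4%, 7.78% and 14.5% in KO SNI, WT SNI, KO naive and WT naive, against 4.23%, 7.06%, 3.75% and 3.83% without it. All 4 libraries had the same direction. The oligodendrocyte nuclei with a Pdyn UMI had Gal in 7 of 39, 2 of 69, 4 of 72 and 0 of 33, and the KO SNI share of 17.9% (7.54 to 33.5) was as high as that of the inhibitory nuclei. In oligodendrocyte nuclei the share with Pdyn was thus above the share without it in both KO libraries and below it in both WT ones. Among the 19 nuclei with 2 or more Pdyn UMIs, 5 had Gal. Nuclei with a Pdyn UMI were somewhat deeper, with medians of 1735, 2076, 1875 and 2190 UMIs against 1653.5, 1801, 1828 and 1908 without one.

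A group of genes that the rule did not use was higher in the Pdyn/Gal nuclei. The number of UMIs over the 4 libraries was set against the number expected from the level in the inhibitory nuclei without either peptide of the same library. Of 4251 genes with at least 20 expected UMIs, 24 were 2-fold or more higher (0.565%) and 29 were 2-fold or more lower (0.682%). The counting interval lay above 1 for 369 genes (8.68%) and below 1 for 443 (10.4%), and the median log2 ratio of all genes was -0.03. Without the WT naive library 11 genes were 2-fold or more higher and 18 lower among 3752, and 11 of the 22 higher ones still measured remained so. Since these nuclei were chosen by reads of the same cells, the ratios are a description and no test.

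Ankfn1 had the highest ratio among genes with at least 20 expected UMIs (chromosome 11, 89390223 to 89777653, minus strand). The Pdyn/Gal nuclei had 1181, 639, 1153 and 1557 CPM of it in KO SNI, WT SNI, KO naive and WT naive, against 231, 221, 280 and 234 CPM in the inhibitory nuclei without either peptide. Its 411 UMIs stood against 102 expected, and 62.7% of the nuclei had a UMI of it against 25.7% of the comparison nuclei. It was higher in all 4 libraries, least so in WT SNI.

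Kcnt2, a sodium-activated potassium channel, followed (chromosome 1, 140246158 to 140612067, plus strand). Its levels were 1079, 395, 1089 and 1412 CPM in the Pdyn/Gal nuclei, against 201, 198, 282 and 222 CPM in the comparison nuclei, with 338 UMIs against 94.6 expected. Pde11a, a phosphodiesterase of cyclic AMP and cyclic GMP (chromosome 2, 75989141 to 76338774, minus strand), had 379, 235, 480 and 598 CPM against 93.0, 103, 123 and 96.0 CPM. For both genes the WT SNI nuclei were the lowest of the 4 and still above every comparison value.

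Chn2, Ptprk, Rorb and Ebf1 were also past 2-fold. Chn2, a chimaerin that switches off the GTPase Rac (chromosome 6, 54039554 to 54301810, plus strand), had 69 UMIs against 21.0 expected, a ratio of 3.29 (2.56 to 4.17). Ptprk, a receptor tyrosine phosphatase (chromosome 10, 28074820 to 28597397, plus strand), had 292 against 112, and its lowest level was in KO naive (523 CPM) rather than WT SNI (536 CPM). Rorb, a nuclear receptor known from dorsal horn interneurons (chromosome 19, 18930605 to 19111196, minus strand), had 685, 418, 555 and 942 CPM in the Pdyn/Gal nuclei, against 260, 237, 226 and 278 CPM. Ebf1, another transcription factor (chromosome 11, 44617317 to 45008091, plus strand), had 2377, 1716, 2584 and 4436 CPM against 1064, 1120, 1215 and 1171 CPM. In none of these 4 genes did the 2 sets of values overlap.

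Other genes past 2-fold were Kcnk2, a leak potassium channel (58 UMIs against 24.0 expected), Kcnd3, an A-type potassium channel (139 against 61.5), the receptor tyrosine kinase Alk (194 against 86.0), protein kinase C alpha, Prkca (289 against 142), and Nxn (63 against 25.7). Just outside the threshold was Parm1, with 56 UMIs against 28.1 expected. The pooled ratio of Alk came from the SNI libraries, where it was 2.71. In the naive libraries Alk had 33 UMIs against 26.5 expected (1.24, 0.856 to 1.75). Kcnt2, Chn2, Ebf1, Kcnk2, Kcnd3 and Prkca overlap other counted genes, and the strand setting of the counting is not stated, so reads of the partners cannot be told apart.

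**Figure D2:**
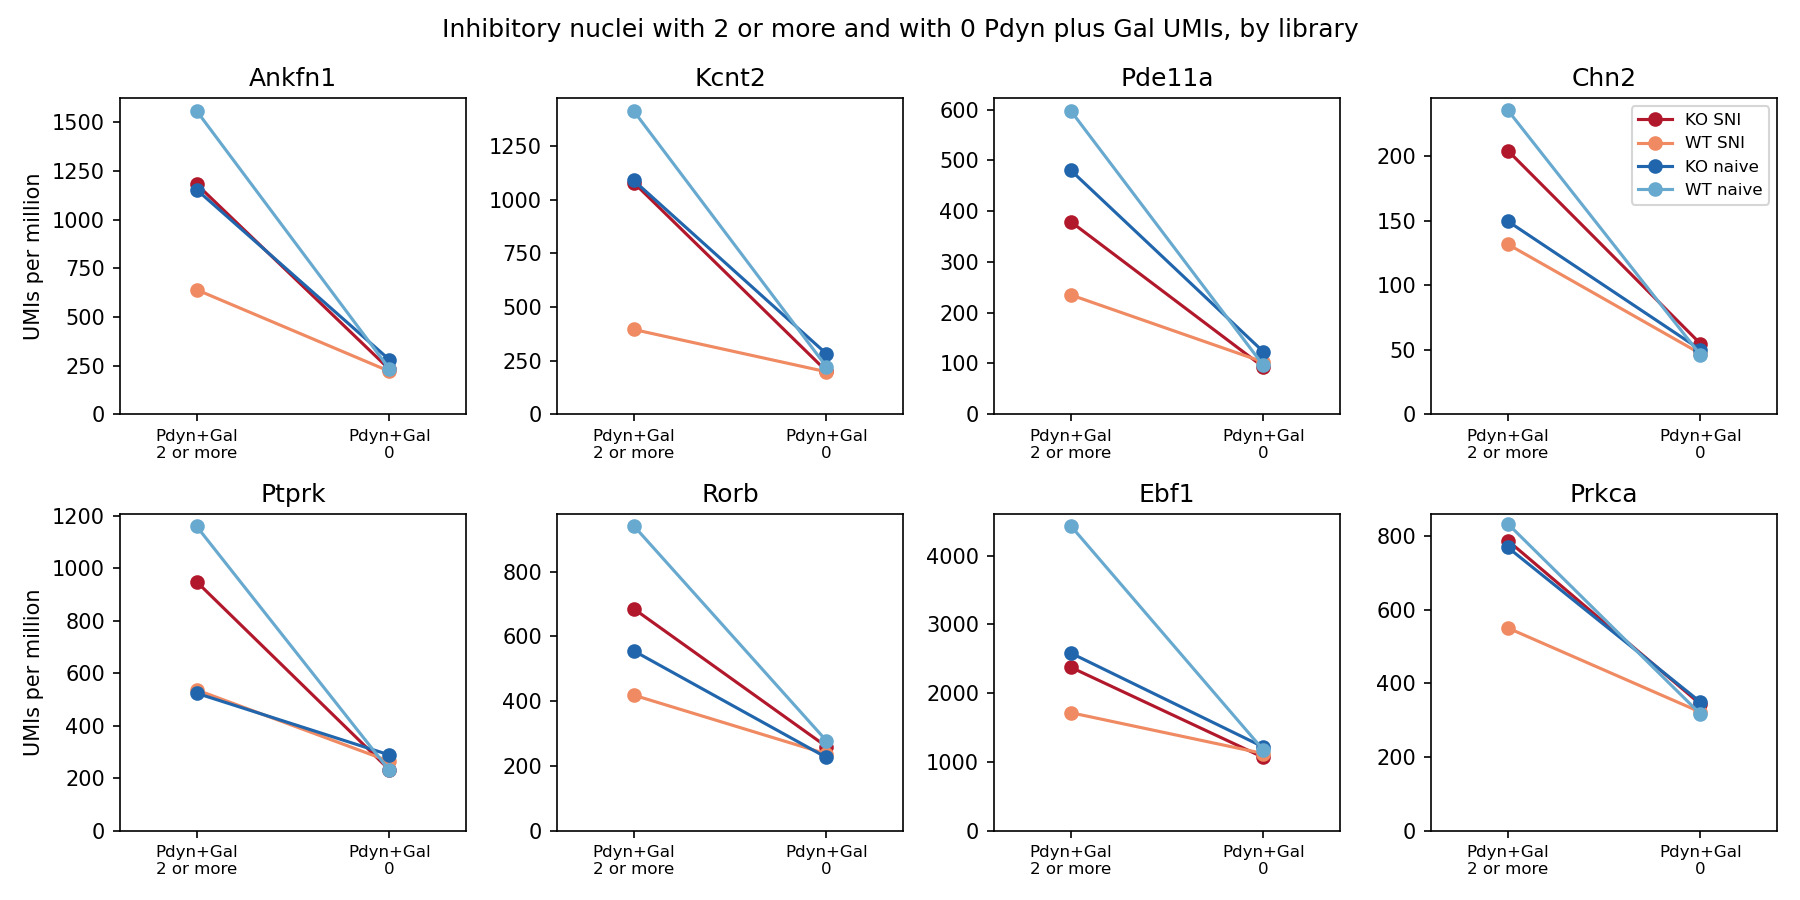
Levels in CPM of 8 genes that were higher in Pdyn/Gal nuclei (left in each panel) than in inhibitory nuclei without either peptide (right), with a coloured point and line per library and axes that start at 0. For Ankfn1 the 4 values on the left run from 639 to 1557 CPM and those on the right from 221 to 280 CPM.

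Of 6888 genes with a ratio in every library, 19 were 2-fold or more higher in all 4 (0.276%) and 2 were lower in all 4 (0.029%). With median-of-ratios scaling in place of CPM the split was 11 higher and 8 lower. Besides Ankfn1, Pde11a, Chn2 and Nxn they included Rspo3, a secreted enhancer of Wnt signalling (39 UMIs against 7.59 expected), the chromatin protein Hmga2 (52 against 10.6), Plk5 (27 against 6.23), Cpne2 (32 against 9.77), Vwa5a (21 against 7.03) and the potassium channel partner Kcnip2 (21 against 8.52). These ratios rest on few UMIs. Without the WT SNI library, 75 genes were 2-fold or more higher and 24 lower in all 3 others. A criterion over 3 libraries is easier to meet than one over 4, and the counts were 49 higher and 5 lower without KO SNI, 37 and 4 without KO naive and 46 and 11 without WT naive.

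The genes that were 2-fold or more lower in all 4 libraries were Col25a1 and Maf. Col25a1, a membrane collagen, had 16 UMIs against 51.4 expected (ratio 0.311, 0.178 to 0.505), and Maf, a transcription factor, had 14 against 36.6 (0.382, 0.209 to 0.641). Plce1, a phospholipase C, had the lowest pooled ratio, with 7 against 25.4. Col11a1 (28 against 65.0), Ndst3 (31 against 71.6) and the GABA-A receptor subunit gene Gabrb2 (18 against 36.2) were also 2-fold or more lower in the pooled counts.

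Of the genes of inhibitory identity outside the rule, Pax2 had 50 UMIs against 48.2 expected (1.04, 0.769 to 1.37), and Pax8, a related factor, had 28 against 14.2 (1.97, 1.31 to 2.84) under the minimum of 20 expected UMIs. Of 11 other dorsal horn transcription factors measured, Rorb, Ebf1 and Nfib (130 against 94.9) lay above 1 with their interval and Rora (501 against 645), Sox5 and Maf lay below. Over all 4251 genes the shares were 8.68% above and 10.4% below. Excitatory identity genes summed to 282 UMIs against 226 in the pooled counts, of which Ebf3 alone held 177 against 98.8. Of the 3 excitatory identity genes measured, 1 had an interval above 1, and the median log2 ratio was -0.21. The higher sum thus rests on Ebf3 and is not shared by the list.

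Among other neuropeptides, Pnoc, the nociceptin precursor, had 25 UMIs against 9.77 expected (2.56, 1.66 to 3.78) and Cartpt had 19 against 6.87 (2.77, 1.67 to 4.32), both under the minimum of 20 expected UMIs. Over all 4251 genes 8.68% had an interval above 1. Penk, the enkephalin precursor, was the 1 of 7 measured peptides whose interval lay above 1, with 44 against 31.9 (1.38, 1.00 to 1.85). A single WT SNI nucleus held 8 of these UMIs, and without the deepest nucleus of each library Penk had 35 against 28.7 (1.22, 0.850 to 1.70). Npy (29 against 30.0), Sst (74 against 69.0), Tac1 (31 against 26.3), Tac2 (44 against 45.3), Cck (46 against 38.2) and Nts (19 against 22.1) had intervals that include 1. Below the minimum were also Grp (11 against 12.6), Nmu (11 against 8.12), Adcyap1 (11 against 12.6), Nppc, Npff, Pthlh, Vip and Cort with 3 UMIs or fewer, and Crh, Ucn3 and Trh with 0.

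The receptors of the 2 peptides were close to the detection limit in these nuclei. Oprk1, the dynorphin receptor, had 5 UMIs against 6.59 expected, Galr1 had 3 against 1.47, and Galr2 and Galr3 had 0. Oprm1 had 32 against 36.9, Oprd1 4 against 5.05 and Oprl1, the nociceptin receptor, 10 against 5.69, each with an interval that includes 1.

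Genes of peptide processing and dense-core granules leaned upward. Of 14 measured, 7 had an interval above 1 and 2 below, against 8.68% and 10.4% of all genes. The median log2 ratio was 0.36 against -0.03 over all genes. Scg2, a granin (176 against 97.6), Pcsk1n (164 against 113), Scg3 (57 against 37.9) and Pam, which amidates peptides (239 against 178), were above. Pcsk2, the convertase that cuts prodynorphin, was below with 243 against 309 (0.787, 0.691 to 0.893). Summed over the list the nuclei had 4403, 5222, 4537 and 5595 CPM in KO SNI, WT SNI, KO naive and WT naive, against 4572, 4696, 4655 and 4513 CPM, so the sum was higher in the WT libraries and lower in the KO ones. Abundant cytoplasmic transcripts moved beside it, with 7 of 11 above and a median of 0.39, and their part in the result was not tested.

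Over all 4251 genes 8.68% had an interval above 1 and 10.4% below. Genes with many UMIs clear 1 more readily, so the list counts that follow are a description only. Of 23 potassium channel genes 8 lay above 1 and 4 below, with a median log2 ratio of 0.01. Kcnt2, Kcnd3, Kcnj6 (98 against 52.6), Kcnc2 (325 against 219) and Kcnip4 (2797 against 1840) were among those above. Of 20 glutamate receptor genes 8 lay above, among them Gria1 (346 against 226), Grik1 (299 against 200) and Grm5 (944 against 729), and 6 below, among them Gria3 (204 against 300) and Grin2a (147 against 221), and the median was -0.08. Of 13 calcium and sodium channel genes 2 lay above and 5 below, with a median of -0.11. Of 28 adhesion and guidance genes 4 lay above, Cdh8 (300 against 211), Robo2 (507 against 348), Sema5a (91 against 56.4) and Unc5c, and 17 below, among them Epha6 (113 against 187), Cntn5 (269 against 424) and Tenm2 (705 against 1030). The median log2 ratio of the adhesion list was -0.36. Scn9a, a sodium channel of pain pathways, had 37 against 67.6 (0.547, 0.385 to 0.754). The immediate early genes, which mark recent activity, summed to 83 UMIs against 59.0, with none of them reaching the minimum. Their sum was 102, 263, 160 and 90.5 CPM in KO SNI, WT SNI, KO naive and WT naive, against 122, 148, 145 and 102 CPM, so it was higher in WT SNI and KO naive and lower in KO SNI and WT naive.

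Markers of other cells were measured in the same nuclei. Oligodendrocyte markers summed to 694 UMIs against 699 expected. By library they had 1225, 1984, 1388 and 1050 CPM in KO SNI, WT SNI, KO naive and WT naive, against 1434, 1658, 1797 and 1441 CPM. Only WT SNI lay above its comparison value, where 1 nucleus held 125 of 422 UMIs, and without the deepest nucleus it had 1588 CPM. Vascular markers summed to 56 UMIs against 21.3. Of the vascular UMIs, 50 came from 1 WT SNI nucleus with 4110 UMIs, which had 22 UMIs of Flt1, 9 of Cldn5, 13 of Rgs5 and 39 of Bsg, 1 inhibitory UMI and 2 of Gal. No other Pdyn/Gal nucleus had more than 1. The cytoplasmic list summed to 2041, 4329, 2039 and 1901 CPM in the Pdyn/Gal nuclei of KO SNI, WT SNI, KO naive and WT naive, against 2358, 2972, 1910 and 1808 CPM, and their part in the results was not tested.

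For several of the genes picked for their ratio in the set, the ratio also followed the order of the peptide UMIs. Nuclei with exactly 1 UMI of the pair, which are not in the set, had 1.79 times the expected Ankfn1, those with 2 had 3.51 times and those with 3 or more had 6.08 times. Kcnt2 ran 1.59, 3.37 and 4.41, Pde11a 1.51, 3.12 and 4.59, Ptprk 1.49, 2.43 and 3.32, Rorb 1.15, 2.25 and 2.44, and Pnoc 1.36, 2.08 and 4.37. Chn2 did not keep that order, with 1.62, 3.42 and 2.79, the last from 12 UMIs. Pax2 (0.957, 0.940 and 1.41), Npy (0.914, 0.848 and 1.41) and Lmx1b (1.08, 0.858 and 0.833) had no such order. Nuclei with 1 UMI and nuclei with 2 lie just outside and just inside the threshold. The genes were picked inside it, so the step from 1 to 2 is favoured by that choice and cannot show a rise. Between 2 and 3 or more UMIs the intervals of Ankfn1 were apart (3.12 to 3.94 and 5.06 to 7.25). Those of Kcnt2, Pde11a, Ptprk, Rorb and Pnoc overlapped, and the difference was not tested.

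**Figure D3:**
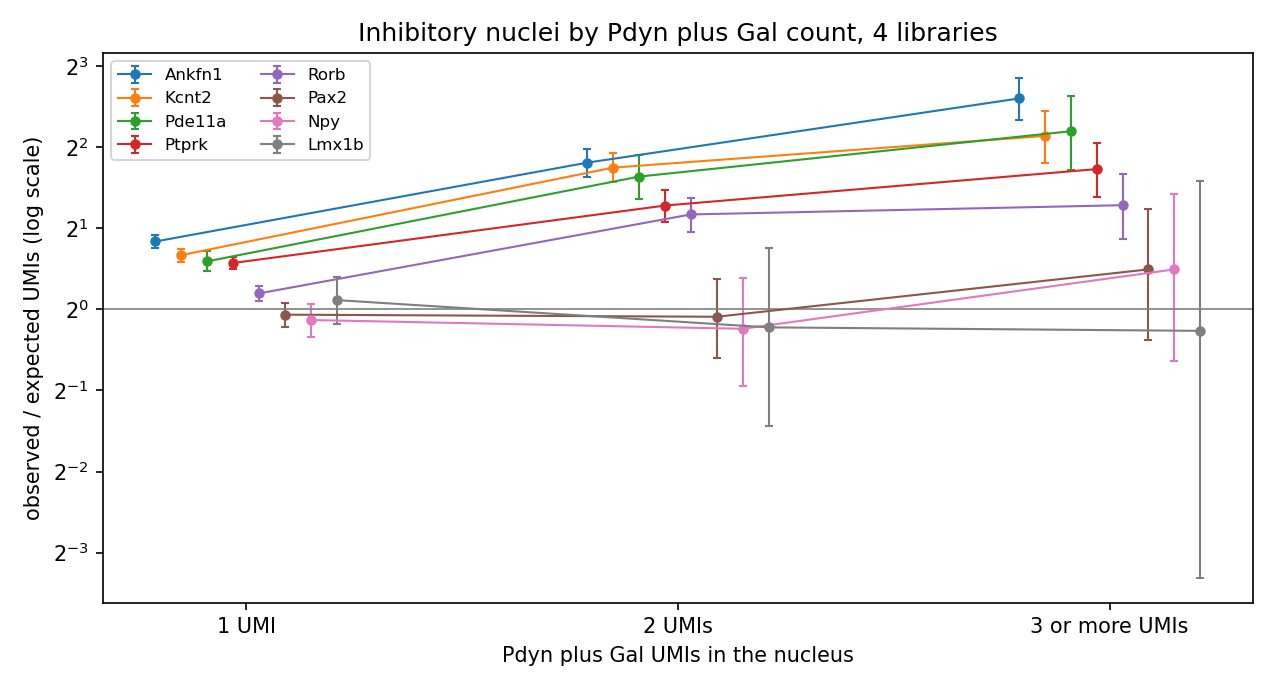
Ratio of observed to expected UMIs with its 95% counting interval, on a log axis, for nuclei with 1, 2 and 3 or more UMIs of Pdyn plus Gal. For Ankfn1 the ratio is 1.79, 3.51 and 6.08, while Pax2 is 0.957, 0.940 and 1.41.

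The ratios were also read by which peptide the nuclei carried, a split on the genes of the rule that was not tested. Ankfn1 was 6.12 times the expected number in the 55 nuclei with both peptides, 3.90 times in the 14 with Pdyn alone and 2.94 times in the 92 with Gal alone. Its intervals were 5.29 to 7.05, 2.80 to 5.30 and 2.52 to 3.41, so the first overlapped the second but not the third. Kcnt2 (5.74) and Pde11a (5.16) were also highest with both, while their values with Pdyn alone rest on 27 and 7 UMIs. Penk had 3 UMIs against 9.74 in nuclei with both peptides and 35 against 18.8 in those with Gal alone, and Nos1, the neuronal nitric oxide synthase, had 0 against 1.79 and 10 against 3.48. The intervals of Nos1 overlapped (0 to 2.06 and 1.38 to 5.28). Npy had 8 UMIs against 3.10 in nuclei with Pdyn alone. The ratio of Ankfn1 was 4.29 in nuclei with 1 inhibitory UMI and 3.69 in those with 2 or more. In the same order Kcnd3 had 2.64 and 1.76, and Chn2 ran the other way with 3.13 and 3.50. The part of the inhibitory call in these ratios was not tested.

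Some of these genes were also higher in nuclei of other gates with 2 or more UMIs of the pair, and others were not. In 39 oligodendrocyte nuclei Ankfn1 had 76 UMIs against 16.3 expected (4.66), and Kcnt2 (2.97, 2.12 to 4.04), Pde11a (3.28, 2.18 to 4.74), Rorb (3.12) and Kcnd3 (3.01) also lay above 1. Chn2, with 6 UMIs against 7.78 (0.771), Ptprk (1.27, 0.957 to 1.66) and Kcnk2 (1.10) had intervals that include 1 there. In 52 excitatory nuclei Ankfn1 had 98 against 45.4 (2.16), and Kcnt2 (2.25), Pde11a (2.18), Chn2 (3.07), Ptprk (1.66) and Rorb (3.01) lay above 1, while the intervals of Kcnk2 (1.11) and Kcnd3 (1.20, 0.828 to 1.69) include 1. Ankfn1, Kcnt2, Pde11a and Rorb were thus the genes of these 8 that were above 1 in all 3 gates. Pax2 had 7 against 2.75 in the oligodendrocyte nuclei and 13 against 3.92 in the excitatory ones.

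Choosing and reading were then separated by library, with 10 companion genes from each pair of libraries. The nuclei of both pairs were chosen by the same rule, so a pattern tied to the rule would appear in both. The reading is therefore a description and no test. Those chosen in the naive pair were read in the SNI pair, where 10 of 10 were above 1 and 4 were 2-fold or more higher, against 43.6% and 0.240% of 2921 genes. Those chosen in the SNI pair were read in the naive pair, where 8 of 10 were above 1 and 6 were 2-fold or more higher, against 43.5% and 1.16%. Ankfn1, Kcnt2, Pde11a and Ptprk were chosen in both. The exceptions in the naive pair, Rbis and Timm10b, had 5 and 4 UMIs there. Chn2, Nxn, C030029H02Rik, Rbis and Timm10b had 7.22, 8.88, 5.97, 5.83 and 4.96 expected UMIs in the naive pair, under the minimum of 10. Ratios from so few UMIs vary more, so the shares of the 2921 genes may not be a like measure for them.

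The reverse direction was read from the companion genes to the peptides. Inhibitory nuclei of each library were ranked by the share of their UMIs in the companion genes chosen in the other pair. In the top 1% Pdyn had 102, 41.7, 107 and 116 CPM in KO SNI, WT SNI, KO naive and WT naive, against 5.23, 9.21, 7.43 and 3.50 CPM in the lowest 80%. Gal had 306, 183, 78.6 and 189 CPM against 19.1, 33.0, 15.2 and 12.7 CPM. The top 1% held 8, 5, 19 and 8 UMIs of Pdyn and 24, 22, 14 and 13 of Gal. The companion genes were chosen through the peptide counts of the other pair, so these values are a description and no test. The ratio was 19.5 (7.95 to 42.0), 4.53 (1.44 to 10.9), 14.4 (8.37 to 23.4) and 33.2 (13.04 to 75.1) for Pdyn, and 16.0, 5.57, 5.17 and 14.9 for Gal, so both peptides were higher in the top nuclei of every library. Npy was not higher there, with ratios of 0.645, 0.858, 0.807 and 0.280 whose intervals include 1. Penk had 0.848, 0.519, 0.330 and 0.452. Pnoc was higher, with 3.03 (0.814 to 7.93), 3.05 (1.38 to 5.87), 3.18 (1.57 to 5.76) and 5.38 (1.94 to 12.04), where the interval includes 1 in KO SNI alone.

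These top nuclei numbered 53, 63, 95 and 41 and their median depths were 1404, 1800, 1711 and 1415 UMIs against 1687.5, 1805, 1917 and 2021.5, so they were not deeper. The rule of the set was met by 15.1%, 9.52%, 7.37% and 12.2% of them, against 0.304%, 0.788%, 0.211% and 0.152% of the lowest 80%. These were 8, 6, 7 and 5 Pdyn/Gal nuclei in the top 1%, and 13, 40, 16 and 5 in the lowest 80%. In WT SNI most of the set, 40 of 64 nuclei, thus had a low share of companion genes. The peptide levels of the top nuclei, unlike those of all inhibitory nuclei, were also above the oligodendrocyte levels in all 4 libraries. Those oligodendrocyte levels are over the whole gate, without a ranking by companion genes. The comparison is therefore not like for like and cannot set the top nuclei apart from background.

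**Figure D4:**
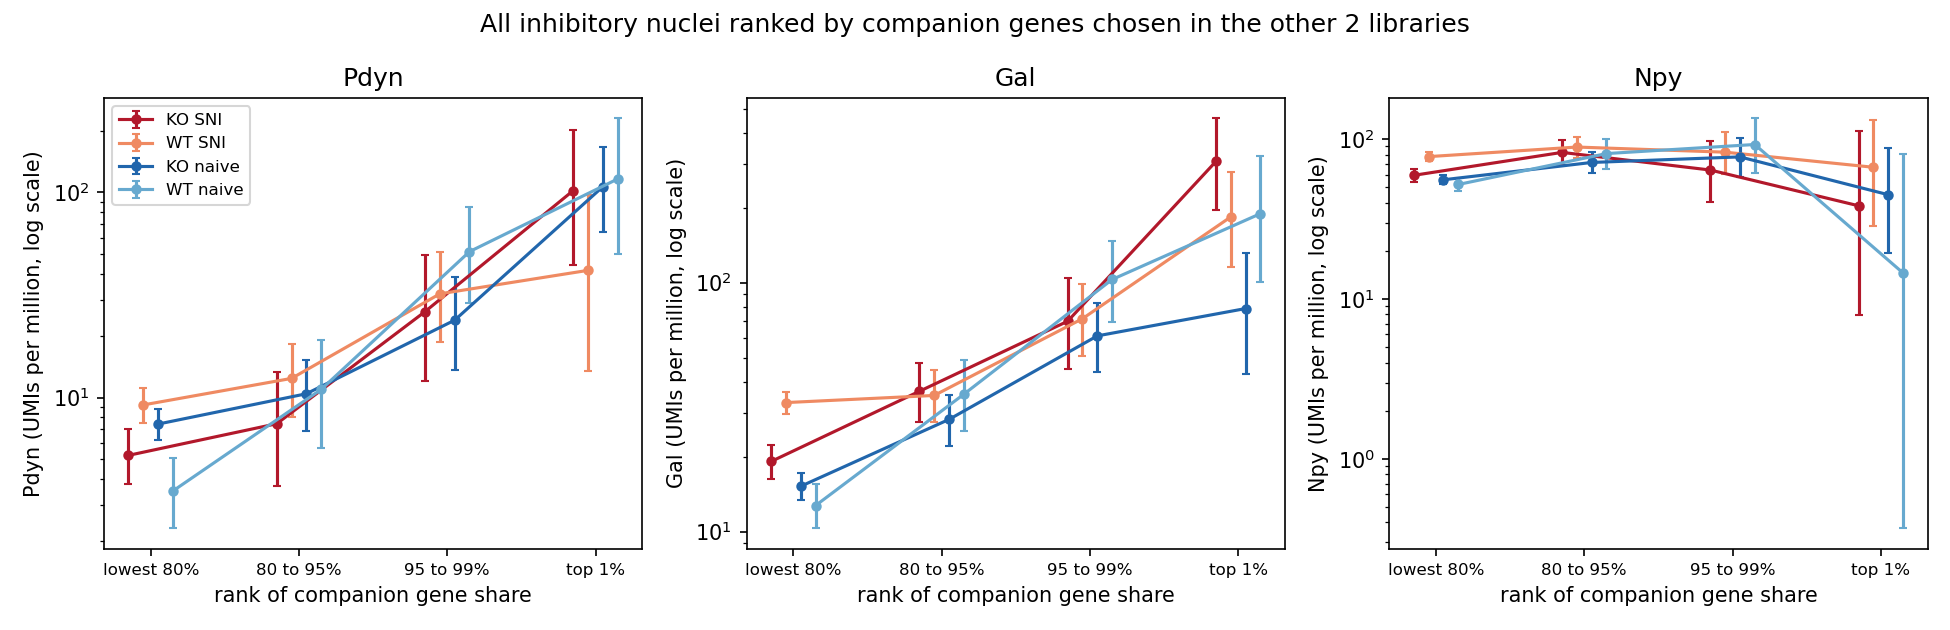
Levels of Pdyn, Gal and Npy in CPM with 95% Poisson intervals, on a log axis, in inhibitory nuclei binned by their share of companion-gene UMIs, from the lowest 80% to the top 1%, by library. Pdyn in the top 1% is 41.7 to 116 CPM, against 3.50 to 9.21 CPM in the lowest 80%.

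Across all inhibitory nuclei, Gal was higher after injury and lower in KO than in WT after injury. Its log2 ratio of SNI to naive was 0.43 (0.20 to 0.66) in KO and 0.87 (0.63 to 1.13) in WT, and of KO to WT it was -0.50 (-0.72 to -0.28) in SNI and -0.05 (-0.31 to 0.21) in naive libraries. The oligodendrocyte nuclei gave 0.50 and 0.68 for SNI to naive in KO and WT and -0.52 and -0.33 for KO to WT in SNI and naive, each with the same sign. Other peptide genes of the inhibitory nuclei had that sign too. For KO to WT in SNI, Sst gave -0.55, Penk -0.38, Npy -0.34, Pnoc -0.27 and Tac1 -0.22, and for SNI to naive in WT, Tac1 gave 0.51, Npy 0.49, Pnoc 0.44, Sst 0.36 and Penk 0.25. For SNI to naive in KO these 5 genes lay between -0.16 and 0.10. For SNI to naive Pdyn gave -0.40 (-0.81 to -0.00) in KO and 0.67 (0.24 to 1.12) in WT, with -0.05 and 0.66 in oligodendrocyte nuclei. For KO to WT it gave -0.63 (-1.06 to -0.22) in SNI and 0.44 (0.02 to 0.88) in naive libraries, with -0.56 and 0.15 in oligodendrocyte nuclei. With 1 library per group these ratios compare libraries, and free RNA cannot be told apart from RNA of the nuclei.

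Among the Pdyn/Gal nuclei, genes were compared between libraries where the 2 sums held at least 50 UMIs. In KO against WT after SNI, 19 of 958 genes were 2-fold or more higher (1.98%) and 50 lower (5.22%), and in the naive libraries 28 of 419 were higher (6.68%) and 7 lower (1.67%). In SNI against naive, 1 of 478 genes was higher (0.209%) and 10 lower (2.09%) in KO, and 68 of 874 were higher (7.78%) and 46 lower (5.26%) in WT. The median log2 ratio over the genes compared was 0.11 and 0.13 for KO to WT in SNI and naive libraries, and -0.12 and -0.02 for SNI to naive in KO and WT. Leaving out the deepest nucleus of each library changed the count from 69 to 35 for KO to WT in SNI and from 114 to 71 for SNI to naive in WT. In WT SNI that nucleus held 25842 UMIs, 12.1% of the UMIs of its Pdyn/Gal nuclei. The part of the set with a low share of companion genes also differed by library. These ratios therefore cannot tell a change within nuclei apart from a different make-up of the set.

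Few genes differed alike in both contrasts of a factor. Here genes needed at least 100 UMIs over the 4 libraries and no minimum in each contrast. Of 657 such genes, 0 were 2-fold higher and 1, Bsg, was 2-fold lower (0.152%) in KO than in WT in both SNI and naive libraries, and 0 were higher and 1, Arhgap6, lower (0.152%) in SNI than in naive in both genotypes. For genotype 335 genes and for injury 347 genes had one sign in both contrasts.

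Arhgap6, a GTPase-activating protein (chromosome X, 168795099 to 169304435, plus strand), had 248 and 240 CPM in the KO SNI and WT SNI Pdyn/Gal nuclei, against 683 and 652 CPM in KO naive and WT naive. The log2 ratio of SNI to naive was -1.46 (-2.33 to -0.67) in KO and -1.44 (-2.09 to -0.79) in WT, while in the inhibitory nuclei without either peptide it was -0.43 and 0.02. Both injury libraries lay below both naive ones. In WT naive 1 nucleus held 8 of the Arhgap6 UMIs (22.2%). Arhgap6 overlaps other counted genes, as do Pcdh15 and Cdh8 below, and reads of the partners cannot be told apart. Htr2c, a serotonin receptor (chromosome X, 146962513 to 147197277, plus strand), had 875 and 625 CPM in KO SNI and WT SNI, against 299 and 344 CPM in KO naive and WT naive. Its ratios were 1.55 (0.88 to 2.25) in KO and 0.86 (0.16 to 1.64) in WT, against 0.08 and -0.11 in the comparison nuclei. Alk (350, 644, 181 and 290 CPM in KO SNI, WT SNI, KO naive and WT naive) had ratios of 0.95 (-0.01 to 1.94) in KO, from 24 and 17 UMIs, and 1.15 (0.40 to 1.999) in WT.

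Bsg, which encodes basigin, a membrane glycoprotein abundant in blood vessels (chromosome 10, 79704491 to 79711969, plus strand), had 146 and 160 CPM in KO SNI and KO naive, against 573 and 344 CPM in WT SNI and WT naive. The log2 ratio of KO to WT was -1.98 (-3.07 to -1.05) in SNI and -1.10 (-2.18 to -0.05) in naive libraries, which held 15 and 19 UMIs. In WT SNI 39 of its 122 UMIs came from the nucleus with the vascular markers, and without it the ratio in SNI was -1.45. Pcdh15, a protocadherin, had 1181 and 1580 CPM in KO SNI and KO naive, against 677 and 543 CPM in WT SNI and WT naive, with ratios of 0.80 (0.39 to 1.21) in SNI and 1.54 (0.97 to 2.16) in naive libraries, against 0.19 and 0.22 in the comparison nuclei. Both KO libraries lay above both WT ones. In KO naive 1 nucleus held 32 of the Pcdh15 UMIs (21.6%). Oligodendrocyte precursor markers in the Pdyn/Gal nuclei summed to 744 and 534 CPM in KO SNI and KO naive, against 672 and 217 CPM in WT SNI and WT naive. Their part in the Pcdh15 ratios was not tested.

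Cdh8, a cadherin (chromosome 8, 99024471 to 99416471, minus strand), had 962, 390, 705 and 1539 CPM in KO SNI, WT SNI, KO naive and WT naive, so its genotype ratio was 1.30 (0.81 to 1.79) in SNI and -1.13 (-1.61 to -0.65) in naive libraries. Kcnt2 and Ankfn1, which were lowest in WT SNI, gave log2 ratios of -1.84 and -1.28 for SNI to naive in WT, and Kcnt2 gave 1.45 for KO to WT in SNI. Their levels in the comparison nuclei of WT SNI and WT naive, given above, lay close together. By share of companion genes, 40 of 64 Pdyn/Gal nuclei in WT SNI were in the lowest 80%, against 5 of 26 in WT naive. A change within nuclei thus cannot be told apart from a different make-up of the sets. The cytoplasmic list was 2-fold or more higher for 7 of 9 genes in SNI to naive in WT, against 7.78% of all genes. Its median was 1.20 against 0.74 in the comparison nuclei. In KO to WT in SNI 4 of 8 were 2-fold or more lower, against 5.22% of all genes. The median there was -1.13 against -0.41. These transcripts differ with the WT SNI library, and their part in the other ratios of that library was not tested.

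**Figure D5:**
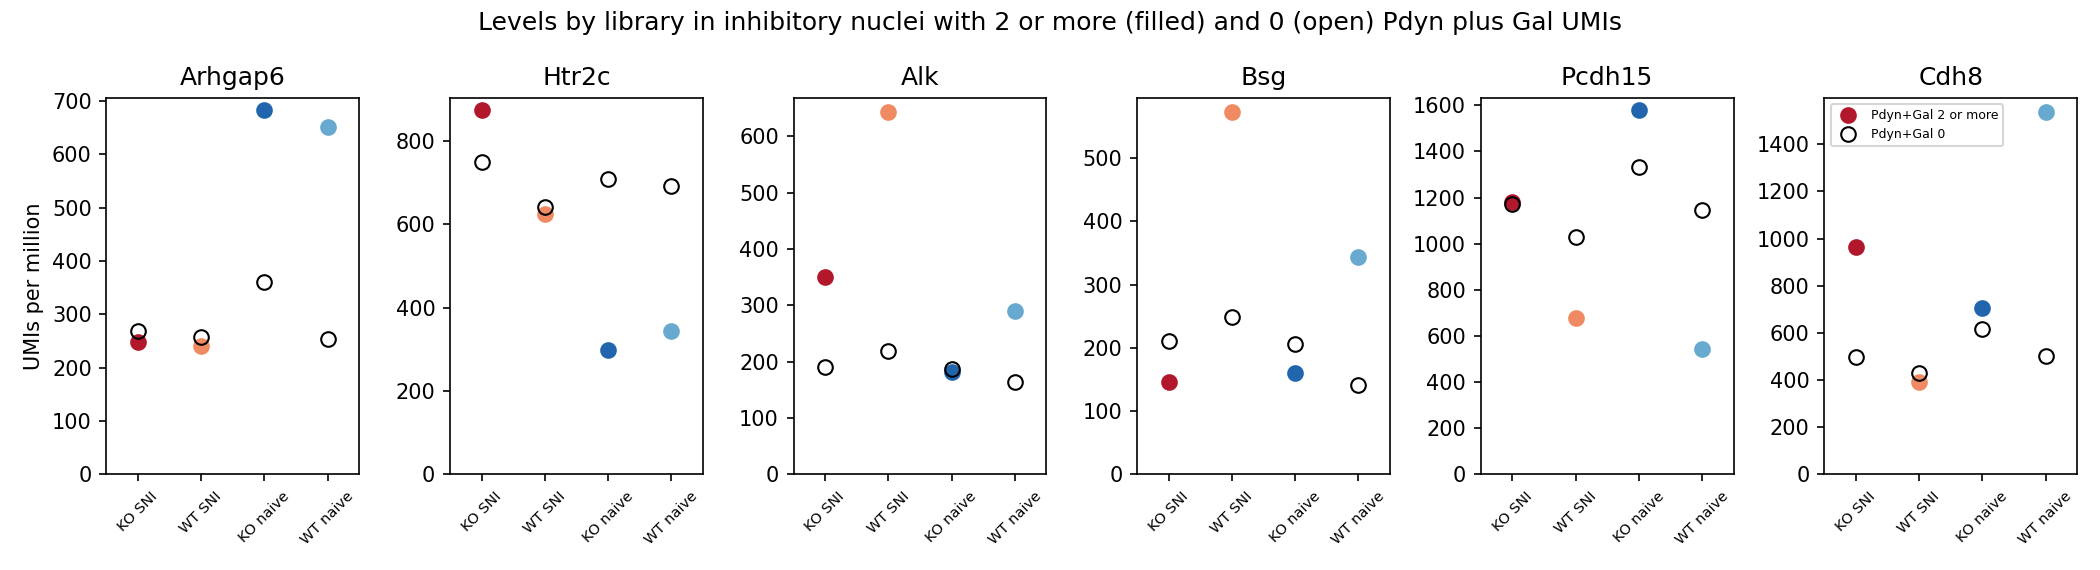
Levels in CPM, on axes that start at 0, of 6 genes named from the library comparisons, in Pdyn/Gal nuclei (filled, coloured by library) and in inhibitory nuclei without either peptide (open), 1 point per library. Arhgap6 is 240 and 248 CPM in the injury libraries, against 652 and 683 CPM in the naive ones.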

How the data were processed

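Raw UMI counts per gene and nucleus, as deposited for 4 libraries of dorsal horn nuclei, were used. Per the file headers the matrices come from Cell Ranger 7.0.0. The submitters' processing notes list the GRCm38 build, R 4.3.0 and Seurat 4.3.0, with no role given. Per the labels' protocols, nuclei were isolated on a sucrose gradient and libraries used a 3′ droplet chemistry. The matrices hold called barcodes only, so free RNA was not subtracted.

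A barcode was kept if it had 300 or more genes and less than 5% of its UMIs from mitochondrial genes. This left out 552 of 112746. Predicted doublets were marked per library with scrublet in scanpy 1.11.5 at an expected share of 10% (scores above the 90th percentile in the libraries where the automatic threshold marked under 0.5%), and kept except in an alternative. They were 5.65%, 9.85%, 4.80% and 9.76% of nuclei in KO SNI, WT SNI, KO naive and WT naive. Excitatory nuclei had a Slc17a6 UMI and none of the 4 inhibitory genes. Oligodendrocyte nuclei had none of these 5 genes and at least 2 UMIs of Mog, Mag and Mobp, and microglia nuclei at least 2 of Csf1r, Cx3cr1, P2ry12, C1qa and C1qb, with no second glial class. Companion genes were the 10 highest ratios among genes with at least 10 expected UMIs in a pair of libraries, leaving out the genes of the rule. UMIs were summed per library and given as CPM of the sum over all but mitochondrial genes. Intervals are at 95%, exact Poisson for levels, Clopper-Pearson for shares and exact conditional binomial for ratios. In ratios 3 UMIs stood in for a count of 0. Scripts used Python 3.11.15, numpy 2.4.6, scipy 1.17.1, pandas 2.3.3 and matplotlib 3.10.9, and were tested on simulated data. GENCODE vM21 gave the GRCm38 coordinates and matched 32235 of 32285 gene IDs.

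Named genes are the peptide, transmitter and knocked-out genes, those with the largest smallest ratio over the 4 libraries, the leading members of each gene list with every neuropeptide and peptide receptor, and the leading genes with one sign in both contrasts of a factor (at least 100 UMIs over the 4 libraries). The pooled comparison was added after seeing the data, and genes named from it were chosen after their values were seen. The set of nuclei, gene lists and rules were chosen with earlier results of these data known. With 1 library per group no test between groups was made.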

Additional observations from a re-analysis of the deposited data

Results flagged for a closer look

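In all inhibitory nuclei the log2 ratio of SNI to naive for Pdyn was -0.40 in KO and 0.67 in WT, and that of KO to WT was -0.63 in SNI and 0.44 in naive libraries. Each pair points in opposite ways with intervals on either side of 0, although that of SNI to naive in KO ended at -0.0016. Over all kept nuclei Pdyn gave -0.28, 0.74, -0.56 and 0.46 in the same order, so the signs were not particular to inhibitory nuclei. The difference within a pair was not tested, and each value rests on 1 library per group. Cdh8 in the Pdyn/Gal nuclei had log2 ratios of KO to WT of 1.30 in SNI and -1.13 in naive libraries. These also have opposite signs, and the difference was not tested.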

How the results depend on the processing

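The share of inhibitory nuclei in the set, in KO SNI, WT SNI, KO naive and WT naive, was 5.52%, 9.16%, 5.57% and 5.12% with 1 UMI of the pair, 0.112%, 0.173%, 0.0632% and 0.0974% with 3, and 0.249%, 0.478%, 0.176% and 0.238% after thinning. With 2 inhibitory UMIs it was 1.55% in WT SNI, 0.277% in KO naive and 1.07% in WT naive. Of nuclei with 2 or more Pdyn UMIs after thinning, 0% had Gal in KO naive and 100.0% in WT naive, from 1 nucleus each. With 2 inhibitory UMIs the log2 ratio of KO to WT for Gal was -0.76 in SNI and -0.45 in naive libraries.

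The 21 genes 2-fold apart in every library became 34 (30 higher, 4 lower) with 3 UMIs, 99 without the WT SNI library, 54 without KO SNI, 41 without KO naive, 57 without WT naive (3 libraries are an easier criterion than 4) and 39 with no UMI minimum. The 53 pooled genes (24 higher, 29 lower of 4251) were 65 (10 and 55 of 706) with 3 UMIs, 53 (19 and 34 of 1761) with 2 inhibitory UMIs, 64 (23 and 41 of 2093) without WT SNI, 29 (11 and 18 of 3752) without WT naive, and 46 to 54 in the others, so like counts had other splits and gene numbers. Of the 24 higher ones, 23 of 24 remained higher without the vascular nucleus, 21 of 22 still measured without doublets, 14 of 15 without WT SNI, 11 of 22 without WT naive and 8 of 13 with 2 inhibitory UMIs. Genes past 2-fold between libraries numbered 20, 2, 4 and 26 with 3 UMIs for KO to WT in SNI, KO to WT in naive, SNI to naive in KO and SNI to naive in WT, and 2913, 2285, 2583 and 2751 with no minimum. For KO to WT in SNI they were 37 (13 higher, 24 lower) without predicted doublets and 35 (11 higher, 24 lower) without the deepest nuclei, and for SNI to naive in WT 71 (42 higher, 29 lower) without the deepest nuclei. The cause was not tested.

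Of 1117 values of named genes under alternatives, 123 moved and 2 changed sign, both with 3 UMIs, where Cox6c was 0.12 for KO to WT in SNI and Slc38a2 1.11 for KO to WT in naive libraries. The alternatives that left out the deepest nuclei, the vascular nucleus or a library, and the pooled comparison, were chosen after seeing the data. No paired analysis was possible because each group was 1 library, and for the same reason no replicate could be left out. A few UMIs per nucleus limit what can be seen of Pdyn and Gal, and genes needed 50 UMIs over both libraries in a contrast, or 100 over the 4 where both contrasts of a factor were read.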
